A study of Mus musculus with 12 samples.

Results

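The comparison described here asked how the loss of STING changed gene expression in the colon of mice that lack interleukin-10. It used the 6 arrays of a series of 12 whose mice were IL10-/-, 3 with the genotype IL10-/- STING-/- (DKO) and 3 with IL10-/- STING+/+ (IL10KO), and it covered all 22180 genes that could be named. Both groups thus share the missing Il10 and differ, per the labels, in STING alone. The other 6 arrays, 3 of IL10+/+ STING+/+ mice (WT) and 3 of IL10+/+ STING-/- mice (SKO), serve here as reference levels and show what STING loss did where interleukin-10 was present. Each array holds total RNA of mouse colon. The labels do not state strain, age, housing, the stretch of colon and the hour of collection, and any of these that ran with genotype cannot be told apart from it. Nor do they state that a group's samples are separate mice, so the spread behind each p-value is that between these samples and may be technical.

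Interleukin-10 holds immune responses to gut bacteria in check, and its loss in mice leads to spontaneous colitis. STING is an adaptor of the endoplasmic reticulum. The enzyme cGAS senses DNA in the cytosol and makes a cyclic dinucleotide that binds STING, which then activates the kinase TBK1 and the factors IRF3 and NF-kappaB, and with them type I interferon and inflammatory genes. An inflamed colon typically fills with neutrophils and monocytes, its epithelium makes antimicrobial lectins and acute-phase proteins, and its differentiated absorptive and secretory genes decline. In RNA of whole colon, fewer cells of a type and less RNA per cell cannot be told apart.

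Values are log2 signals, so a difference of 1 is a doubling, and differences are DKO minus IL10KO with the standard error of the fit unless stated. A gene is called where limma gave a Benjamini-Hochberg adjusted p under 0.05 over all genes. By this rule 1284 genes, 5.79% of those tested, differed between DKO and IL10KO. Of these 740 (3.34%) were higher and 544 (2.45%) lower in DKO. The falls were larger than the rises. Among changes of at least 2-fold, 164 genes rose and 216 fell, and past 8-fold 4 rose and 20 fell. The 3 arrays of each genotype did not overlap for 6033 genes, 27.2% of all, and for 1272 of those called.

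Several arrays stood apart. Sting1 lay at 7.51, 6.40 and 4.56 on the WT arrays, and at 4.40, 4.32 and 4.28 on the SKO arrays. The library labelled WT replicate 3 was therefore at the level of the STING-deficient arrays, against its label, and over all genes its closest array was SKO replicate 1 (r = 0.997). Neither array enters the difference between DKO and IL10KO itself, but both enter the shared error and every level quoted for WT and SKO. Array IL10KO replicate 1 deviated most from the series' median profile (median absolute deviation 0.29, against 0.08 to 0.21 on the other 11). The 3 IL10KO arrays correlated with each other at r = 0.976 to 0.982 and the 3 DKO arrays at 0.989 to 0.993. Stratified squamous genes averaged 5.30, 6.68 and 6.81 on the IL10KO arrays and 4.75, 4.74 and 5.48 on the DKO arrays. They lay between 4.73 and 4.97 on the WT and SKO arrays, so the signal of squamous genes was highest in IL10KO replicates 2 and 3. Without 3 of the doubted arrays (IL10KO replicate 1, WT replicate 3 and SKO replicate 2), a choice made after the values were seen, 497 genes were higher and 608 lower, which turns the balance of direction.

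**Figure D1:**
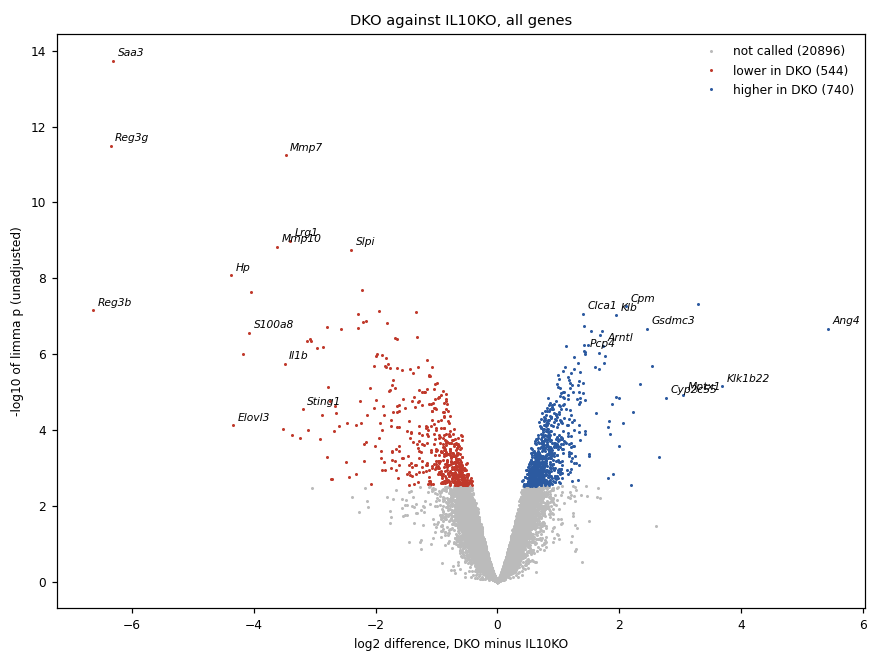
Each point is 1 of 22180 genes, with the log2 difference DKO minus IL10KO on the horizontal axis and minus log10 of limma's unadjusted p on the vertical axis. The 740 genes called higher in DKO are blue, the 544 called lower are red and the other 20896 are grey. The red points reach past -6 (Reg3b, Reg3g and Saa3), while Ang4 at 5.43 is the farthest blue point.

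The promoters of the 3 genes that rose most (Ang4, Klk1b22 and Mptx1, predicted and clone symbols left aside) and the 3 that fell most (Reg3b, Reg3g and Saa3) are printed because these genes carry the extremes of the comparison. Each sequence runs from 250 bases before to 50 bases after the start of the RefSeq gene (GRCm38.p6), read 5′ to 3′ on the gene's strand. Capitals mark matches, on either strand, to 3 short patterns for factors downstream of STING or of inflammatory cytokines. These were GAAA, any 2 bases and GAAA (interferon-response-like), TTCNNNGAA (STAT-like), and GGG, any 5 bases and CC (NF-kappaB-like). The Ang4 window lies at chr14:51773541-51773840 on the minus strand, Klk1b22 at chr7:44112423-44112722 on the plus strand and Mptx1 at chr1:174330268-174330567 on the plus strand. The Reg3b window lies at chr6:78370635-78370934 on the plus strand, Reg3g at chr6:78468825-78469124 on the minus strand and Saa3 at chr7:46715627-46715926 on the minus strand.
Ang4: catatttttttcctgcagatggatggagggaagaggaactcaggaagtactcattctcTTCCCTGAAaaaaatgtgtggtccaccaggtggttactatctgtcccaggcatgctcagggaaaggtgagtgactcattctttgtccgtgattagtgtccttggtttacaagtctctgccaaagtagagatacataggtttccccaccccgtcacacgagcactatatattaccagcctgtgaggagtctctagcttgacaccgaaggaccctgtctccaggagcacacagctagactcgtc
Klk1b22: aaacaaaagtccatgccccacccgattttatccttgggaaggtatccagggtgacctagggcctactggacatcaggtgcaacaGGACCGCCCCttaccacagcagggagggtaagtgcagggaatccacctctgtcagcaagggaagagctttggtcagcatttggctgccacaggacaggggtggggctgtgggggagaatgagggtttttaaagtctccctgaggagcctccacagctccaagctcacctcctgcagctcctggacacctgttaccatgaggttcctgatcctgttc
Mptx1: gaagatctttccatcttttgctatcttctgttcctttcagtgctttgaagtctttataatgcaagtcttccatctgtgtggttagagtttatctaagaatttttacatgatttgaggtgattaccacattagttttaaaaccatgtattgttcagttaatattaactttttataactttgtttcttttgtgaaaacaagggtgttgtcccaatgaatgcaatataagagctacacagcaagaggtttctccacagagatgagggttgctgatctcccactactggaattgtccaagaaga
Reg3b: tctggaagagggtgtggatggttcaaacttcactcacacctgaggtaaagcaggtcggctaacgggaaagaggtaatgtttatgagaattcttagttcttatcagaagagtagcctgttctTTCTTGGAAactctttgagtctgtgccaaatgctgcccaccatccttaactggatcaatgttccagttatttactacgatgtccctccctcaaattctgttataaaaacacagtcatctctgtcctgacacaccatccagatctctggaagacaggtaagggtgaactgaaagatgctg
Reg3g: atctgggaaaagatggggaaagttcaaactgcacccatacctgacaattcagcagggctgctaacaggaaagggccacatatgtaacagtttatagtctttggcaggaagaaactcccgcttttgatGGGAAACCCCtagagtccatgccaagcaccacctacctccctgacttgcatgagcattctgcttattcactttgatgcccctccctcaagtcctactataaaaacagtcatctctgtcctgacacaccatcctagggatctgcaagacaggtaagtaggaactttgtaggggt
Saa3: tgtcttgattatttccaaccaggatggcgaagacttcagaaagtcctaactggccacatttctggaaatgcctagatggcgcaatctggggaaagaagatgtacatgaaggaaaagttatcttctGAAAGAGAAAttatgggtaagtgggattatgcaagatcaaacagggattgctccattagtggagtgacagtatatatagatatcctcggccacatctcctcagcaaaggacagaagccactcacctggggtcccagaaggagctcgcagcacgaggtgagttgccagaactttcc
The interferon-response-like pattern was found only in the Saa3 window of these 6, and over 32851 mouse promoters of this length 3.443% hold it. The STAT-like pattern was found once in Ang4 and once in Reg3b and is in 8.298% of promoters. The NF-kappaB-like pattern was found once in Klk1b22 and once in Reg3g, and 50.79% of promoters hold it, so a match there singles out little. These are matches of letters. The STAT-like and the NF-kappaB-like pattern each stood in a gene that rose and in one that fell.

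Sting1 itself checked the labels of the 6 arrays. It lay at 6.87, 8.09 and 7.33 on the IL10KO arrays and 4.23, 4.13 and 4.34 on the DKO arrays, and all DKO arrays were below all IL10KO arrays. The difference was -3.20 ± 0.52 (SE, adjusted p = 0.00344), a 9.16-fold lower signal. Il10, which both groups lack, lay at 4.59, 4.87 and 5.47 on the IL10KO arrays and 4.60, 4.49 and 4.33 on the DKO arrays, with overlapping groups and a difference of -0.51 (adjusted p = 0.119). Without IL10KO replicate 1 that difference was called. Both genotypes were above the WT mean of 3.68 for Il10, although its gene is targeted, and the position of the probes on the transcript is unknown here. Few genes beside the targeted loci were called. Of the 40 nearest genes around Sting1 1 was called (2.5%), and of the 40 around Il10 also 1 (2.5%), against 5.79% of all genes. Of the nearest 100 the shares were 2% around Sting1 and 6% around Il10.

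Antimicrobial lectins and acute-phase proteins made up the deepest falls. Reg3b and Reg3g encode secreted C-type lectins of the gut epithelium, the latter known to kill Gram-positive bacteria. Reg3b lay at 12.63, 10.12 and 11.11 on the IL10KO arrays and 4.85, 4.22 and 4.89 on the DKO arrays. Every DKO array was far below every IL10KO array, by -6.63 ± 0.63 (SE, adjusted p = 0.000120), which is 99.3-fold. Reg3g lay at 10.20, 8.76 and 9.16 on the IL10KO arrays and 2.81, 3.12 and 3.14 on the DKO arrays, a difference of -6.35 ± 0.28 (SE, adjusted p = 3.56e-08). Saa3, a serum amyloid A made in inflamed tissue, lay at 10.55, 10.52 and 10.70 on the IL10KO arrays and 4.14, 4.69 and 4.01 on the DKO arrays. Its 79.4-fold fall (-6.31 ± 0.19 SE, adjusted p = 4.03e-10) had the smallest p of all genes. On the WT and SKO arrays these 3 genes averaged between 2.81 (Reg3g in WT) and 5.01 (Reg3b in WT), close to the DKO levels.

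Other acute-phase genes followed. Hp, which encodes haptoglobin, a scavenger of free haemoglobin, fell by 4.37 ± 0.35 (SE, adjusted p = 2.65e-05). Lrg1, a leucine-rich glycoprotein induced in inflammation, lay at 8.63, 9.35 and 8.77 on the IL10KO arrays and 6.02, 5.31 and 5.22 on the DKO arrays and fell by 3.40 ± 0.23 (SE, adjusted p = 5.68e-06). Lcn2 encodes lipocalin 2, which withholds iron from bacteria and is a usual marker of colitis. It lay at 8.38, 10.02 and 8.62 on the IL10KO arrays and 6.26, 5.55 and 6.02 on the DKO arrays, with no overlap, and changed by -3.06 ± 0.34 (SE, adjusted p = 0.000280). Of the 22 acute-phase and complement genes measured 6 fell, none rose, and the median difference was -0.55, against -0.04 over all genes. Among 31 epithelial defence genes 10 fell and 3 rose, so this list split: the phospholipase Pla2g2a (-2.57 (adjusted p = 0.000185)), the protease inhibitor Slpi (-2.40 (adjusted p = 6.42e-06)) and lysozyme Lyz1 (-2.16 (adjusted p = 0.000166)) fell, while Ang4 and Mptx1 were among those that rose.

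**Figure D2:**
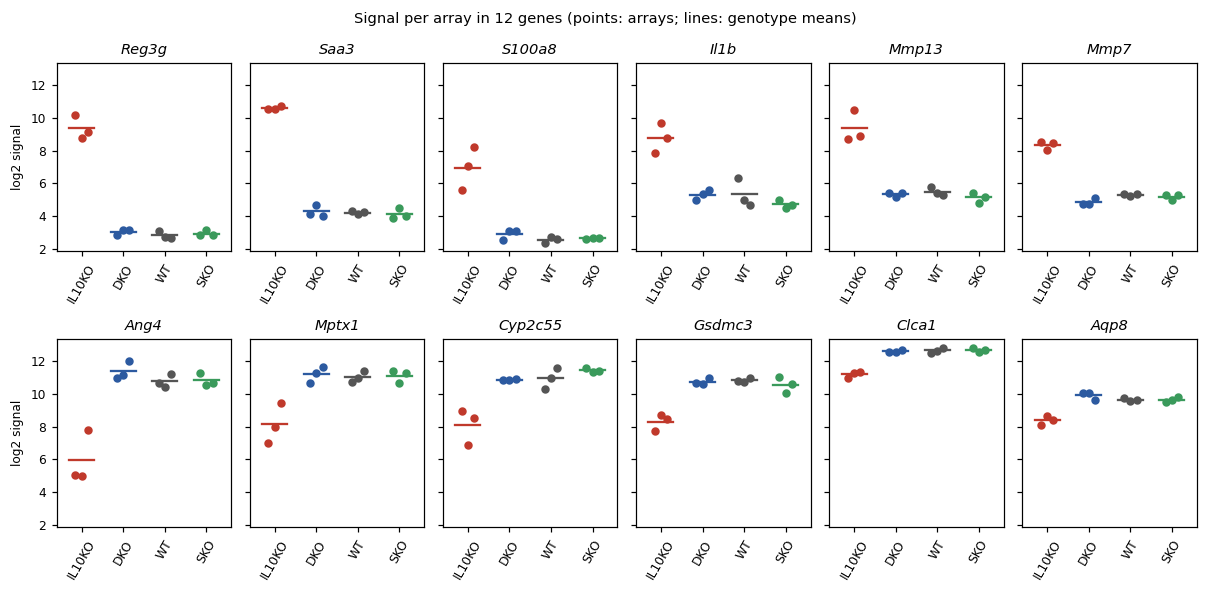
Log2 signal on every array for 12 genes, with points for arrays and lines for the mean of each genotype's 3 arrays. In the upper row (Reg3g, Saa3, S100a8, Il1b, Mmp13 and Mmp7) the IL10KO arrays stand above all others, and in the lower row (Ang4, Mptx1, Cyp2c55, Gsdmc3, Clca1 and Aqp8) they stand below, while DKO lies near WT and SKO.

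Neutrophil genes were lower in DKO as a group. Of 27 measured markers 15 fell and none rose, with a median difference of -1.34. Retnlg, a resistin-like peptide of mouse neutrophils, lay at 6.42, 8.74 and 6.71 on the IL10KO arrays and 3.62, 2.82 and 2.88 on the DKO arrays and fell by 4.18 ± 0.50 (SE, adjusted p = 0.000460). S100a8 and S100a9 form calprotectin, the metal-binding protein of neutrophil cytosol. S100a8 lay at 5.60, 7.08 and 8.19 on the IL10KO arrays and 2.52, 3.06 and 3.06 on the DKO arrays, a change of -4.07 ± 0.44 (SE, adjusted p = 0.000210), and S100a9 changed by -3.08 ± 0.34 (SE, adjusted p = 0.000265). The lowest IL10KO array for S100a8 (replicate 1) still lay above the highest DKO array. Ltf, which encodes lactoferrin, changed by -2.86 (adjusted p = 0.000355), and the receptor gene Csf3r by -1.35 (adjusted p = 0.00323). The call of 12 of the 15 held when any single one of the 12 arrays was left out. The mean of the list was 5.30, 6.28 and 5.90 on the IL10KO arrays and 4.25, 4.33 and 4.44 on the DKO arrays, against 4.17 to 4.38 on WT and SKO arrays.

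Macrophage and monocyte markers showed 8 falls and no rise among 26, with a median of -0.49 and 5 falls without DKO replicate 2. Chil3, a chitinase-like protein of alternatively activated and inflammatory macrophages, lay at 6.99, 6.69 and 5.21 on the IL10KO arrays and 3.01, 3.54 and 2.96 on the DKO arrays, a change of -3.13 ± 0.35 (SE, adjusted p = 0.000280). Arg1, an arginase, changed by -2.03 (adjusted p = 0.00339). Nos2, the inducible nitric oxide synthase, which is also expressed by inflamed epithelium, changed by -1.86 (adjusted p = 0.00432). Few lymphoid markers were called, but most of their differences were negative. None of 21 T and natural killer cell markers was called by limma, although 7 had an unadjusted p under 0.05 (all lower in DKO), where 24.4% of all genes did. Their median was -0.46, and for 9 all DKO arrays lay below all IL10KO arrays, where 13.8% of all genes did so. The largest difference, that of the granzyme gene Gzma, came from signals of 5.78, 4.42 and 5.53 on the IL10KO arrays and 3.80, 4.28 and 3.99 on the DKO arrays, and was -1.22 (adjusted p = 0.163). Without WT replicate 1 Gzma and Gzmb were called lower, and without IL10KO replicate 2 or 3 1 member was. In the list of regulatory and helper T cell genes 3 of 17 fell: the costimulatory receptor Tnfrsf9 (-0.96 (adjusted p = 0.00917)), the inhibitory receptor Ctla4 (-0.87 (adjusted p = 0.0149)) and Icos (-0.54 (adjusted p = 0.0472)). Of these Tnfrsf9 kept its call under every single omission. The list counted 1 fall without IL10KO replicate 3, DKO replicate 1 or DKO replicate 2 and 5 without IL10KO replicate 2 or SKO replicate 2. An unadjusted p under 0.05 was held by 9 of its 17 genes (52.9%, against 24.4% of all genes), all lower in DKO. For 10 all DKO arrays lay below all IL10KO arrays. No marker of dendritic cells (14 measured, 6 at an unadjusted p under 0.05) or of B and plasma cells (21 measured, 5 at that level) was called by limma. Single omissions gave a few calls. Dendritic markers had 2 falls without IL10KO replicate 2 and 1 without SKO replicate 2. B and plasma cell markers had 1 fall without IL10KO replicate 1 or 3 and 1 rise (Pigr, the epithelial immunoglobulin receptor) without IL10KO replicate 2 or SKO replicate 2.

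The interleukin-1 family led the falls among cytokines. Il1b encodes interleukin-1 beta, the secreted product of inflammasome activity. It lay at 7.82, 9.71 and 8.79 on the IL10KO arrays and 4.96, 5.33 and 5.56 on the DKO arrays and fell by 3.49 ± 0.44 (SE, adjusted p = 0.000683), 11.3-fold. Il1a changed by -1.83 ± 0.23 (SE, adjusted p = 0.000739), and Il1f9, which encodes an interleukin-36 cytokine, by -1.76 ± 0.23 (SE, adjusted p = 0.000755). Il11, a gp130 cytokine of stromal cells, lay at 5.41, 6.36 and 6.13 on the IL10KO arrays and 3.95, 4.26 and 4.22 on the DKO arrays and changed by -1.82 ± 0.22 (SE, adjusted p = 0.000537). Altogether 8 of 29 inflammatory cytokine genes fell and none rose, with a median of -0.46. The count was 4 without DKO replicate 1 and 5 without DKO replicate 2. Socs3, a feedback inhibitor induced through STAT3, changed by -1.48 (adjusted p = 0.00767).

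Of 14 CXC chemokines, secreted attractants of leukocytes, 6 fell (Cxcl1, Cxcl2, Cxcl3, Cxcl5, Ppbp and Cxcl14), and of their 6 receptors 1 did (Cxcr2, a receptor of neutrophils). None rose, and the median of all 20 was -0.53. Cxcl5 lay at 7.03, 9.06 and 8.53 on the IL10KO arrays and 5.78, 5.44 and 5.38 on the DKO arrays and changed by -2.67 ± 0.42 (SE, adjusted p = 0.00304). Ppbp changed by -2.76 (adjusted p = 0.00269), Cxcl2 by -1.65 (adjusted p = 0.000755), Cxcl1 by -1.40 (adjusted p = 0.00269) and Cxcl14, a chemokine of epithelium and fibroblasts, by -1.80 (adjusted p = 0.000169). Calls among CC chemokines and their receptors were fragile. They numbered 4 falls (Ccl2, Ccl11, Ccl7 and Ccr1) and 1 rise (Ccl28, an epithelial chemokine) among 24, and no fall was left without DKO replicate 1 or without DKO replicate 2. The largest, the monocyte attractant Ccl2, changed by -1.18 (adjusted p = 0.0308).

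Tissue-remodelling enzymes fell in 1 direction. Of 22 metalloproteinases and their inhibitors 11 fell and none rose, with a median of -0.88. Mmp7 encodes matrilysin, an epithelial protease that activates antimicrobial peptides. It lay at 8.51, 8.03 and 8.44 on the IL10KO arrays and 4.71, 4.75 and 5.09 on the DKO arrays, tight within each group, and changed by -3.48 ± 0.16 (SE, adjusted p = 4.21e-08). Mmp13, a collagenase, lay at 8.69, 10.49 and 8.89 on the IL10KO arrays and 5.38, 5.15 and 5.43 on the DKO arrays, highest on IL10KO replicate 2, and changed by -4.04 ± 0.35 (SE, adjusted p = 5.58e-05). Mmp10, a stromelysin, changed by -3.62 ± 0.25 (SE, adjusted p = 6.42e-06). Mmp3 changed by -2.64 (adjusted p = 0.00396), Mmp8, the neutrophil collagenase, by -2.14 (adjusted p = 0.00433), and the inhibitor Timp1 by -1.77 (adjusted p = 0.00197). Collagens and matrix genes were less uniform, with 6 falls and 1 rise among 32 and a median of -0.29. Lox, which cross-links collagen, lay at 7.63, 8.04 and 7.79 on the IL10KO arrays and 6.29, 5.52 and 5.80 on the DKO arrays and changed by -1.95 ± 0.19 (SE, adjusted p = 0.000120). Col12a1 changed by -1.20 (adjusted p = 0.00198) and the bone morphogenetic protein antagonist Grem1 by -0.87 (adjusted p = 0.00445). The number of falls was 11 under quantile normalization, 10 without IL10KO replicate 2 and 3 without DKO replicate 2, and the rise lost its call without IL10KO replicate 1 or DKO replicate 1 or 2. Among 22 endothelial markers 4 fell, led by the adhesion molecules Selp (-2.25 (adjusted p = 0.00268)) and Vcam1 (-1.09 (adjusted p = 0.00646)), with 2 falls without IL10KO replicate 1 or without any one of the DKO arrays.

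The interferon arm of the pathway gave a different picture from the inflammatory genes. None of the 14 type I and type III interferon and receptor genes was called by limma (median 0.02). An unadjusted p under 0.05 was held by 2 (14.3%, against 24.4% of all genes). The ordinary 2-sample test on the same 6 arrays put 3 under that level. The members with the largest differences were the receptor chain Ifnar2 (-0.57 (adjusted p = 0.0576)) and the transcription factor Stat2 (0.57 (adjusted p = 0.219)), of opposite sign. Ifnar2 was called lower without IL10KO replicate 1 (-0.73, adjusted p = 0.0159) and without SKO replicate 2, and Ifnb1, which encodes interferon beta, without DKO replicate 3 or SKO replicate 2. Of 27 interferon-stimulated genes 2 rose and none fell, with a median of 0.30. Over all genes 3.34% rose and 2.45% fell. The list counted 5 rises when only the DKO and IL10KO arrays were fitted, and 1 without DKO replicate 1 or 2. It had 1 fall without IL10KO replicate 1, WT replicate 1 or 2 or SKO replicate 2, and under quantile normalization among other settings. At an unadjusted p under 0.05 stood 8 of the 27 (29.6%, against 24.4% of all genes), 6 higher and 2 lower in DKO. Ifit1bl1 lay at 9.56, 9.55 and 9.996 on the IL10KO arrays and 11.10, 11.32 and 10.996 on the DKO arrays, and DKO was above all 9 other arrays. Its difference was 1.43 ± 0.22 (SE, adjusted p = 0.00252). Oas1g, an oligoadenylate synthetase that senses double-stranded RNA, lay at 6.29, 6.82 and 6.91 on the IL10KO arrays and 8.15, 8.54 and 7.88 on the DKO arrays, a difference of 1.51 ± 0.33 (SE, adjusted p = 0.0182), and lost its call without DKO replicate 1, DKO replicate 2 or IL10KO replicate 1. The mean of the list was 6.60, 6.61 and 6.70 on the IL10KO arrays and 6.86, 7.30 and 6.97 on the DKO arrays, so the DKO arrays were the higher ones without overlap. It ranged from 6.41 to 7.44 on the WT arrays, the highest being WT replicate 1.

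Genes typical of interferon gamma had a median of the other sign, and none passed the test. Of 16 such GTPases and related genes 0 were called by limma and 1 had an unadjusted p under 0.05, against 4 by the ordinary 2-sample test. Their median was -0.36, and 7 had non-overlapping arrays, all lower in DKO, where 13.8% of all genes were lower without overlap. The list averaged 7.11, 5.69 and 5.42 on WT replicates 1 to 3, a spread that enters the shared error. Without WT replicate 1 or 3, 1 member (Gbp9) was called lower. Iigp1, a GTPase against intracellular pathogens, lay at 9.17, 8.76 and 8.37 on the IL10KO arrays and 6.92, 8.06 and 7.52 on the DKO arrays, with a difference of -1.26 ± 0.69 (SE, adjusted p = 0.276). None of 12 MHC class I and immunoproteasome genes (median -0.22) or of 9 MHC class II genes (median -0.28) was called by limma or had an unadjusted p under 0.05, and the ordinary 2-sample test put 1 of each list under that level. In the sensing pathway itself, 25 genes measured, 1 fell (Sting1) and 1 rose. The riser was Mavs, the adaptor of RNA sensing, at 0.67 (adjusted p = 0.0462), and it lost its call in most single omissions, among them those of DKO replicates 1 and 2. The list's median was 0.05. Of 15 inflammasome and caspase genes Mefv fell (-0.62 (adjusted p = 0.0241)) and Nlrp6 rose (0.72 (adjusted p = 0.0377)), and both lost their calls without DKO replicate 1 or 2, Nlrp6 also without IL10KO replicate 1 or 3, DKO replicate 3 or SKO replicate 1.

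**Figure D3:**
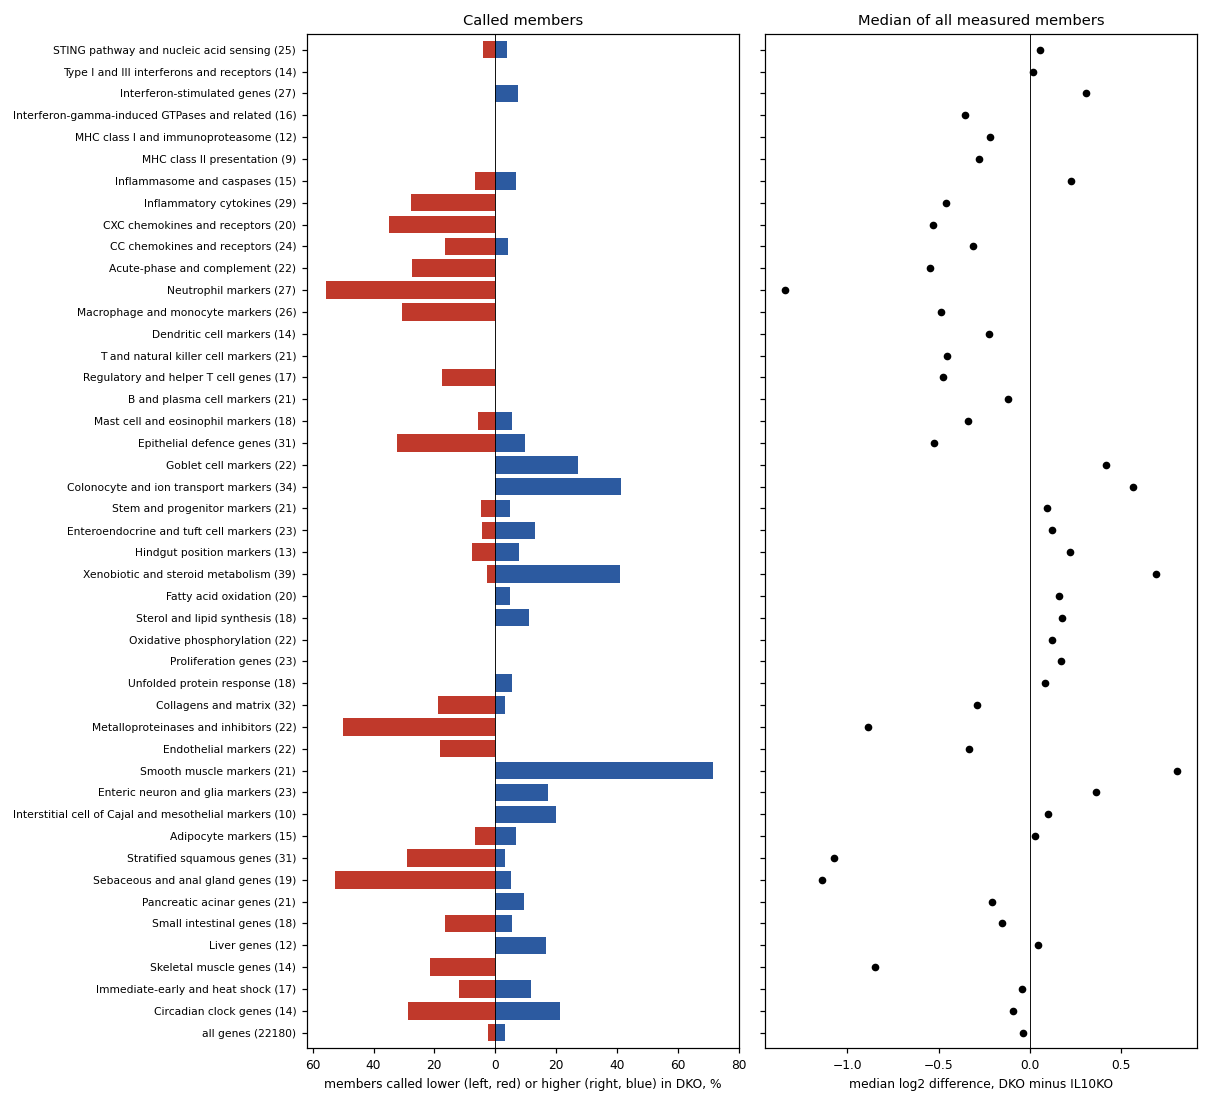
Gene lists with at least 5 measured members, their number in brackets, and all genes in the bottom row. The left panel gives the percent of members called lower (red, left) and higher (blue, right) in DKO than in IL10KO, and the right panel the median log2 difference of all measured members. Neutrophil markers (15 of 27) and metalloproteinases (11 of 22) have long red bars, smooth muscle markers (15 of 21) the longest blue bar, and the interferon lists short bars or none.

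Rises were led by products of the crypt and of the surface epithelium. Ang4 encodes a bactericidal angiogenin of Paneth and goblet cells. It lay at 5.07, 5.01 and 7.80 on the IL10KO arrays and 11.002, 11.14 and 12.04 on the DKO arrays, the IL10KO arrays being uneven among themselves but all below DKO. The difference was 5.43 ± 0.57 (SE, adjusted p = 0.000185), 43.2-fold. Mptx1, a mucosal pentraxin, lay at 7.01, 8.01 and 9.43 on the IL10KO arrays and 10.67, 11.31 and 11.64 on the DKO arrays and rose by 3.06 ± 0.46 (SE, adjusted p = 0.00218). Gsdmc2 and Gsdmc3 encode gasdermin C proteins, pore formers of the intestinal epithelium. Gsdmc3 lay at 7.71, 8.69 and 8.49 on the IL10KO arrays and 10.69, 10.61 and 10.98 on the DKO arrays and rose by 2.46 ± 0.26 (SE, adjusted p = 0.000185), and Gsdmc2 rose by 2.35 ± 0.33 (SE, adjusted p = 0.00151). These genes have near-identical copies, so probes may share signal between them. Retnla, a resistin-like molecule induced by type 2 cytokines, rose by 2.66 ± 0.59 (SE, adjusted p = 0.0193) and lost its call without DKO replicate 1 or 3.

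Goblet cell markers showed 6 rises and no fall among 22, with a median of 0.41, and 3 rises without DKO replicate 1. Clca1, a secreted protease that processes mucus, lay at 10.998, 11.25 and 11.34 on the IL10KO arrays and 12.58, 12.55 and 12.68 on the DKO arrays and rose by 1.41 ± 0.14 (SE, adjusted p = 0.000120). Fcgbp, a mucus protein that binds Muc2, rose by 1.20 ± 0.17 (SE, adjusted p = 0.00172). Muc2, the gel-forming mucin, lay at 12.65, 12.39 and 12.43 on the IL10KO arrays and 12.70, 12.82 and 12.64 on the DKO arrays, a difference of 0.23 (adjusted p = 0.322). Its signal was high on all 6 arrays. Colonocyte and ion transport markers showed 14 rises and no fall among 34, with a median of 0.57. Aqp8, a water channel of surface colonocytes, lay at 8.09, 8.62 and 8.43 on the IL10KO arrays and 10.06, 10.04 and 9.64 on the DKO arrays and rose by 1.53 ± 0.16 (SE, adjusted p = 0.000191). Car1, a carbonic anhydrase typical of proximal colon, rose by 1.44 ± 0.27 (SE, adjusted p = 0.00790), and the bicarbonate cotransporter Slc4a4 by 1.21 ± 0.20 (SE, adjusted p = 0.00424). The count was 6 without DKO replicate 1 and 6 without DKO replicate 2. Defining markers of colon epithelium (Car1, Aqp8 and Clca1) were bright on all 6 arrays, as the tissue label states.

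Among metabolic lists, that of xenobiotic and steroid metabolism held most of the rises. Of 39 genes of xenobiotic and steroid metabolism 16 rose and 1 fell (Hsd11b1, which regenerates active glucocorticoid, -0.77 (adjusted p = 0.0120)), with a median of 0.69. Cyp2c55, an epoxygenase of colon, lay at 8.94, 6.86 and 8.54 on the IL10KO arrays and 10.86, 10.86 and 10.94 on the DKO arrays, with the DKO arrays nearly equal, and rose by 2.77 ± 0.42 (SE, adjusted p = 0.00244). The efflux pumps Abcg2 (1.41 (adjusted p = 0.00143)) and Abcb1a (1.17 (adjusted p = 0.00504)) and the glutathione transferase Gstm3 (1.36 (adjusted p = 0.00246)) kept their calls under every single omission. The steroid dehydrogenase Hsd3b3 did not. It lay at 6.26, 5.56 and 6.07 on the IL10KO arrays and 8.12, 8.22 and 8.13 on the DKO arrays, a difference of 2.20 ± 0.60 (SE, adjusted p = 0.0482), and lost its call in 9 of 12 single omissions. The list counted 7 rises without DKO replicate 1 and 10 without DKO replicate 2. Among 20 genes of fatty acid oxidation 1 rose, where 3.34% of all genes did. That count was 4 without IL10KO replicate 2, and none rose without IL10KO replicate 1 or 3 or DKO replicate 1 or 2. Among 18 of sterol and lipid synthesis 2 rose (1 without DKO replicate 1). None of 22 genes of oxidative phosphorylation was called by limma. Of these 22, 4 (18.2%) had an unadjusted p under 0.05, against 24.4% of all genes.

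Single genes outside the lists above completed the largest rises. Cpm, a membrane carboxypeptidase, lay at 6.90, 7.72 and 6.99 on the IL10KO arrays and 9.57, 9.22 and 9.14 on the DKO arrays and rose by 2.11 ± 0.20 (SE, adjusted p = 0.000109). Klb, the co-receptor beta-klotho for endocrine fibroblast growth factors, rose by 1.96 ± 0.19 (SE, adjusted p = 0.000122). Otc, a urea cycle enzyme also made in gut epithelium, rose by 2.07 (adjusted p = 0.00589). C7, a terminal complement component, rose by 2.22 (adjusted p = 0.00384). Klk1b22, a tissue kallikrein, lay at 3.68, 4.69 and 4.25 on the IL10KO arrays and 8.14, 7.93 and 7.60 on the DKO arrays and rose by 3.69 ± 0.52 (SE, adjusted p = 0.00163). It belongs to a cluster of near-identical genes, and its signal cannot be assigned to that gene alone. The remaining large rises were Sycn, of the pancreatic acinar list (2.01 (adjusted p = 0.00244)), Slc34a2 (1.997 (adjusted p = 0.0133)) and Tppp3 (1.96 (adjusted p = 0.00240)). Of these Slc34a2 lost its call without DKO replicate 1 or 2.

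Smooth muscle genes gave the highest share of rises of any list. Of 21 measured 15 rose and none fell, the median was 0.81, and 10 held under every single omission. Pcp4, a calmodulin-binding peptide of muscle and neurons, lay at 7.77, 7.47 and 7.90 on the IL10KO arrays and 9.50, 8.97 and 9.02 on the DKO arrays and rose by 1.45 ± 0.17 (SE, adjusted p = 0.000430). Synpo2, which binds actin at the contractile apparatus, rose by 1.25 ± 0.16 (SE, adjusted p = 0.000776), the intermediate filament gene Des by 1.03 (adjusted p = 0.00230) and the smooth muscle myosin Myh11 by 0.80 (adjusted p = 0.00640). The mean of the list was 8.54, 8.86 and 8.68 on the IL10KO arrays and 9.66, 9.50 and 9.37 on the DKO arrays. On the WT and SKO arrays it lay between 9.40 and 9.68, so the IL10KO arrays were the low ones. Enteric neuron and glia markers went the same way with 4 rises among 23. Snap25, a vesicle fusion protein of nerve terminals, lay at 6.10, 6.74 and 6.49 on the IL10KO arrays and 8.03, 7.56 and 7.76 on the DKO arrays and rose by 1.34 ± 0.18 (SE, adjusted p = 0.00129). Stmn2 rose by 0.91 (adjusted p = 0.00339) and Syt1 by 0.97 (adjusted p = 0.00434). How much of the muscle layer each sample held was not tested.

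Of the lists for tissues other than colon, those of squamous, sebaceous and skeletal muscle genes moved with the comparison. Pancreatic acinar, liver, adipocyte and small intestinal lists had medians of -0.21, 0.04, 0.03 and -0.15. In these, 2 pancreatic, 2 liver, 1 adipocyte and 1 small intestinal gene rose, and 1 adipocyte and 3 small intestinal genes fell. Of 31 stratified squamous genes 9 fell and 1 rose, and of 19 sebaceous and anal gland genes 10 fell and 1 rose (Klk1b22). Elovl3, a fatty acid elongase of sebaceous glands, lay at 4.94, 8.78 and 9.42 on the IL10KO arrays and 3.15, 3.80 and 3.15 on the DKO arrays, so IL10KO replicates 2 and 3 were high and replicate 1 much closer to DKO. Elovl3 differed by -4.35 ± 0.78 (SE, adjusted p = 0.00634). Elovl4 lay at 6.14, 9.36 and 9.80 on the IL10KO arrays and 4.88, 4.67 and 5.17 on the DKO arrays and differed by -3.53 (adjusted p = 0.00710). Krt6a, a keratin of stressed squamous epithelium, lay at 5.03, 8.10 and 7.58 on the IL10KO arrays and 3.59, 3.35 and 4.44 on the DKO arrays and differed by -3.11 (adjusted p = 0.00736). The number of squamous falls was 23 without IL10KO replicate 1, and 4 without DKO replicate 1. It was 4 also without DKO replicate 2, 5 without IL10KO replicate 2, and 14 without DKO replicate 3 or SKO replicate 2. Sebaceous falls numbered 6 without DKO replicate 2. Skeletal muscle genes averaged 5.53, 6.17 and 7.16 on the IL10KO arrays and 5.63, 4.87 and 5.77 on the DKO arrays, and 3 of 14 fell, with no fall left without IL10KO replicate 3, DKO replicate 1 or 2, WT replicate 3 or SKO replicate 1, 1 without DKO replicate 3, WT replicate 1 or 2 or SKO replicate 3, and 6 without IL10KO replicate 1. These values bear on any gene that squamous or anal tissue expresses in common with the lists above, and their part in the inflammatory and epithelial differences was not tested. On IL10KO replicate 1, whose squamous mean was the lowest of its group, Saa3, Reg3g and Mmp7 lay at 10.55, 10.20 and 8.51, as high as on the other IL10KO arrays. Other genes were lower there than on IL10KO replicates 2 and 3, among them S100a8 (5.60 against 7.08 and 8.19), Il1b (7.82 against 9.71 and 8.79) and Cxcl5 (7.03 against 9.06 and 8.53), as was the mean of the neutrophil list. The squamous mean of IL10KO replicate 1 (5.30) was still above those of DKO replicates 1 and 2 (4.75 and 4.74). Setting IL10KO replicate 1 against those 2, the difference was -6.13 for Saa3, -7.24 for Reg3g, -3.78 for Mmp7 and 6.004 for Ang4. These are values of 3 arrays with no test. Pcp4 was at 1.46. Many inflammatory differences were smaller than over all arrays, at -2.81 for S100a8, -2.68 for Il1b, -1.42 for Cxcl5 and -1.11 for Arg1, as were those of Elovl3 (-1.47) and Krt6a (-1.56). Of the 15 neutrophil markers called 14 were smaller in size and the median of the list was -0.87. Of the 11 metalloproteinases and inhibitors called 9 were smaller, with a median of -0.53. Not all list medians shrank. That of inflammatory cytokines went from -0.46 over all arrays to -0.63, though 6 of the 8 called were smaller. That of CXC chemokines and receptors went from -0.53 to -0.79, with 6 of 7 called smaller. Acute-phase and complement genes went from -0.55 to -0.47, macrophage and monocyte markers from -0.49 to -0.25 and smooth muscle markers from 0.81 to 1.05.

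**Figure D4:**
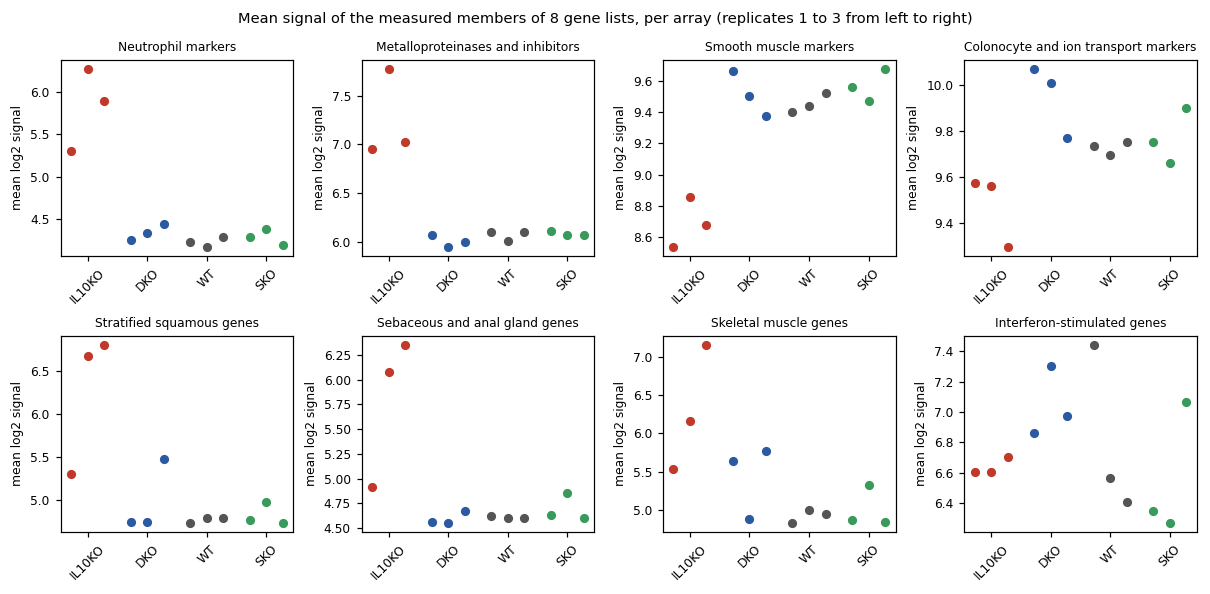
Mean log2 signal of the measured members of 8 gene lists on each array, with replicates 1 to 3 of a genotype from left to right and a separate vertical scale in each panel. Neutrophil and metalloproteinase means are raised on all 3 IL10KO arrays and smooth muscle means are reduced on them. Squamous and sebaceous means are raised mainly on IL10KO replicates 2 and 3.

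Circadian genes changed in both directions. Of 14 measured 3 rose and 4 fell, with 2 falls without IL10KO replicate 2, DKO replicate 2 or DKO replicate 3 and 5 rises without IL10KO replicate 2. Arntl, the clock activator BMAL1, lay at 7.36, 8.07 and 7.86 on the IL10KO arrays and 9.76, 9.48 and 9.26 on the DKO arrays and rose by 1.74 ± 0.20 (SE, adjusted p = 0.000336), and its partner Npas2 rose by 1.67 ± 0.22 (SE, adjusted p = 0.000776). The output gene Dbp lay at 7.72, 8.26 and 7.39 on the IL10KO arrays and 6.46, 6.36 and 6.39 on the DKO arrays and fell by 1.39 ± 0.18 (SE, adjusted p = 0.000899). Nr1d1, a repressor of Arntl, fell by 1.46 (adjusted p = 0.0246) and lost its call without IL10KO replicate 2, DKO replicate 2 or DKO replicate 3. For Dbp and Nr1d1 the DKO arrays lay below all 9 others, including WT and SKO, whereas Arntl averaged 9.34 in WT, near its DKO mean of 9.50. As the hour of collection is unknown, its part was not tested.

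The other genotypes placed these changes. For each called gene, the WT mean was compared with the midpoint between IL10KO and DKO. It lay on the DKO side for 1231 of 1284 genes (95.9%), and the SKO mean did so for 1208 (94.1%). Over all genes the shares were 74.6% and 68.5%. With WT replicate 3 left out the first count was 1224 (95.3%). Seen by array, the 3 IL10KO arrays lay beyond all 9 others in 1084 called genes (84.4%), 437 of them above and 647 below, against 11.5% of all genes. The 3 DKO arrays lay beyond all 9 others in 54 (4.21%), against 1.12% of all genes. Genes were called for the comparison of DKO with IL10KO, so their IL10KO and DKO levels are not independent of this count. The DKO arrays correlated with the WT arrays at r = 0.983 to 0.991 and with the IL10KO arrays at 0.963 to 0.977.

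Whether STING loss acted differently with and without interleukin-10 was tested as the difference of both effects, (DKO minus IL10KO) minus (SKO minus WT), which share no array. This difference was called for 143 genes (0.645%), 62 positive and 81 negative, and all 143 were also called between DKO and IL10KO. In each of them the effect without interleukin-10 was the larger in size. Its median size was 1.43, and that of SKO minus WT was 0.12. These genes were chosen by the difference of effects, so neither these sizes nor the overlap with the other calls is independent of that choice. The comparison of SKO with WT by itself gave 0 calls in limma, with 454 genes at an unadjusted p under 0.05. The library labelled WT replicate 3, with Sting1 at the knockout level, enters this contrast. Without it 168 genes were called for the difference of effects and 55 between SKO and WT, among them Sting1 and pancreatic enzyme genes such as Cpa1 and Cel.

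Saa3 and Reg3g had the clearest differences of effect. For Saa3 the effect of STING loss was -6.31 without interleukin-10 and -0.09 with it, a difference of -6.22 ± 0.27 (SE, adjusted p = 4.95e-08). For Reg3g the 2 effects were -6.35 and 0.11 (difference adjusted p = 2.69e-06). Mmp7 (-3.48 against -0.14, adjusted p = 6.63e-06) and Lrg1 (-3.40 against -0.02, adjusted p = 0.000311) belonged to the same group. Among rises the difference was called for Ang4 (5.43 against 0.05, adjusted p = 0.0107), Gsdmc3 (2.46 against -0.27, adjusted p = 0.00507) and Cpm (2.11 against 0.07, adjusted p = 0.00548). Il1b did not pass (difference -2.88, adjusted p = 0.0571), nor did Cyp2c55 (difference 2.27, adjusted p = 0.113). Sting1 was lower in both settings, with differences of -3.20 and -1.82, and the difference of -1.37 had an adjusted p of 0.373. Without WT replicate 3 the SKO effect on Sting1 was -2.62 (adjusted p = 0.00263) and the difference of effects -0.58 (adjusted p = 0.564).

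The number of calls depended on single arrays. Leaving out 1 array at a time, the count ranged from 425 (without DKO replicate 1) to 2361 (without IL10KO replicate 2), with 504 without DKO replicate 2 and 836 without IL10KO replicate 3. Under all 12 single omissions 346 of the 1284 genes kept their call, 176 higher and 170 lower. Rises no longer outnumbered falls without IL10KO replicate 1 (391 against 572) or without DKO replicate 1 (190 against 235). Median centring gave 1030 rises against 474 falls, and leaving out the dimmest 33.3% of genes gave 912 against 410.

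**Figure D5:**
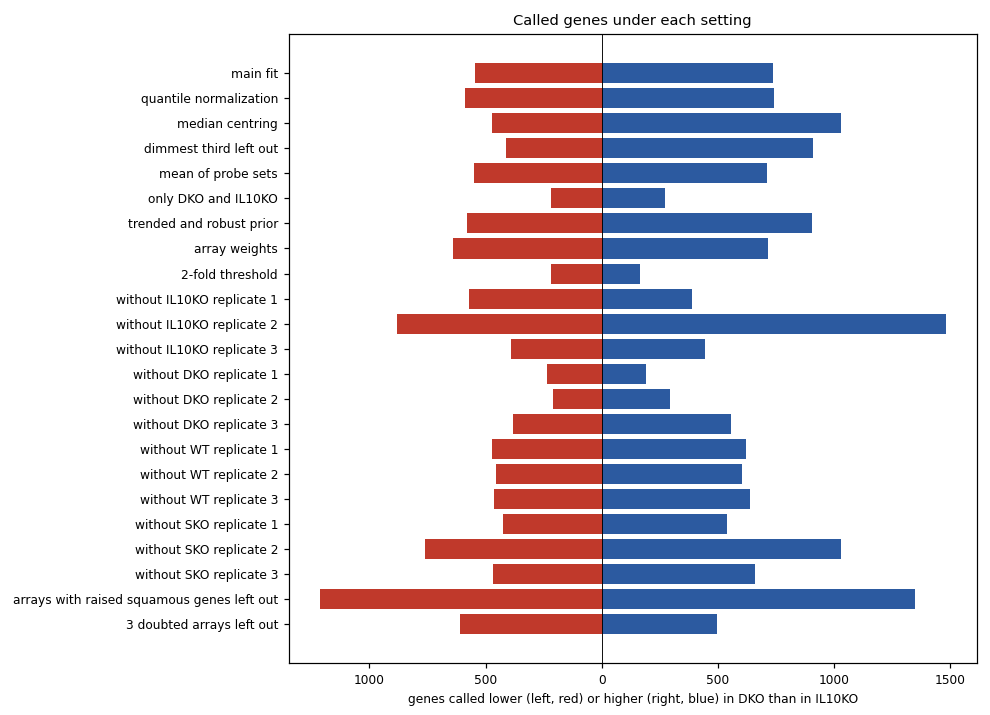
Number of genes called lower (red, left) and higher (blue, right) in DKO than in IL10KO under the main fit and each alternative. The ordinary 2-sample test has no bar, with 0 calls. The bars are next shortest for the 2-fold threshold, for the fit of only DKO and IL10KO and without DKO replicate 1 or 2, and longest without IL10KO replicate 2 and without the arrays with raised squamous genes.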

How the data were processed

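RNA of 12 colon samples, 3 per genotype, was measured on Affymetrix whole-transcript arrays. The authors deposited log2 signals of 41345 probe sets. Per the submitters' processing notes they used Affymetrix Expression Console (version 1.3.1.187). The method of normalization was not given in the sources used here, and the log2 scale was read from the range of the values. With no detection calls, a dim signal is not evidence of absence. Precision is limited by the number of arrays.

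Each gene was taken from its brightest probe set among 23521 with exactly 1 symbol. Of the others 1814 had several symbols and 16010 none. A model with 1 mean per genotype was fitted to all 12 arrays in limma (3.58.1; R 4.3.3), with 8 residual and 5.56 prior degrees of freedom, 2-sided tests and Benjamini-Hochberg adjustment over 22180 genes. Replicate numbers follow the order of deposit and pair nothing.

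The genes, lists and alternatives were chosen with earlier results of these data known. The naming rule takes the 15 genes that rose most and the 15 that fell most, if called and without overlap between arrays, Sting1 and Il10, up to 4 called members per list (or the 2 with the largest differences), and the 5 largest of each sign for the difference of effects. Predicted, clone, segment, olfactory and small RNA symbols were left out. Genes named beyond this rule (Csf3r, Cxcl1, Cxcl2, Mmp8, Timp1, Muc2, Des, Myh11, Abcb1a, Gstm3, Hsd11b1, Pla2g2a, Slpi, Ccl28, Socs3 and those in the closing observations) were chosen after their values were seen. Of 1035 list entries 938 matched. Lists are given by counts and medians. The alternatives are described in the closing section. The fit was tested on simulated data.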

Additional observations from a re-analysis of the deposited data

Results flagged for a closer look

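For 10 genes, the effect of STING loss differed between mice without and with interleukin-10 by the largest amounts of each sign among the genes whose difference of effects passed limma's test (adjusted p under 0.05), with predicted and clone symbols left aside. The difference is (DKO minus IL10KO) minus (SKO minus WT) on the log2 scale. The 5 largest negative values were Reg3g -6.46, Saa3 -6.22, Reg3b -5.82, Retnlg -4.52 and S100a8 -4.15. Their calls held when any single array was left out. The 5 largest positive values were Ang4 5.39, Clps 3.51, Gsdmc3 2.74, C7 2.61 and Gsdmc2 2.50. Of the clone symbols left aside, 2310079G19Rik (3.48) and 5430427M07Rik (2.80) also lay in this range. Ang4 and Gsdmc3 kept their calls under every single omission, whereas Clps lost its call in 6 of 12, C7 in 8 and Gsdmc2 in 7.

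Clps encodes colipase, a pancreatic cofactor of lipase. It averaged 10.47 in WT, 8.85 in SKO, 7.84 in DKO and 5.94 in IL10KO. Pancreatic acinar genes as a list averaged 8.15 on WT replicate 1 and 10.75 on WT replicate 2, against 5.08 to 5.68 on the other 10 arrays, and the part of those arrays in the Clps value was not tested.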

How the results depend on the processing

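Fitted on only the 6 arrays compared, 489 genes were called, 271 higher and 218 lower. A 2-fold threshold left 380, 164 higher and 216 lower. An ordinary 2-sample test gave 0 calls, 0 higher and 0 lower, after adjustment, with 3590 genes at an unadjusted p under 0.05. Without IL10KO replicates 2 and 3 and DKO replicate 3, the arrays with raised squamous genes, 2562 were called, 1349 higher and 1213 lower, and 645 for the difference of effects. That fit leaves 1 IL10KO array, assumed to vary like the other groups. Single omissions gave 425 to 2361 calls, 190 to 1481 higher, 208 to 880 lower, and 50 to 376 for the difference of effects (316 without IL10KO replicate 1, 376 without IL10KO replicate 2, 59 and 50 without DKO replicates 1 and 2, 73 and 51 without WT replicates 1 and 2, and 57, 55 and 75 without SKO replicates 1 to 3). Array weights gave 736 for it, in a weight estimate that stopped before it converged, and leaving out the 3 doubted arrays, chosen after seeing the data, gave 245. The causes were not tested, except that 6 arrays and fewer samples leave fewer degrees of freedom. Quantile normalization, median centring, a trended and robust prior, averaging probe sets, testing each probe set and leaving out the dimmest genes kept every one of these totals within 1.5 times. The genes called between DKO and IL10KO changed in part. Of 1334 called under quantile normalization 981 were also called in the main fit, as were 1073 of 1322 without the dimmest genes. Counts within lists moved further. Quantile normalization gave 11 falls among collagens and matrix genes in place of 6, array weights gave 21 squamous falls in place of 9, and leaving out the dimmest genes gave 6 neutrophil falls in place of 15, with 12 of 27 markers tested, and 4 cytokine falls in place of 8, with 12 of 29 tested. Interferon, dendritic, T and B cell lists with no call had 1 or 2 under several of these settings. No called gene taken by the naming rule changed sign under any alternative. No paired analysis was possible because the labels give no shared replicate numbers.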

Other observations

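Families were grouped by symbol after the values were seen. Of 361 solute carrier genes (Slc) 30 rose in DKO (8.31%, against 3.34% of all genes) and 11 fell (3.05%, against 2.45%). Among the risers were the phosphate transporter Slc34a2, the peptide transporter Slc15a1 at 1.17 (adjusted p = 0.0187) and the zinc transporter Slc39a5 at 1.23 (adjusted p = 0.00154). The cystine transporter Slc7a11 fell by 1.67 (adjusted p = 0.0300). All 8 keratins called among 53 (15.1%) were lower in DKO, and so were the 4 called among 16 S100a genes (25%). Of 24 kallikrein genes 3 rose (Klk1b22, Klk1b5 and Klk1) and 5 fell (Klk13, Klk7, Klk14, Klk9 and Klk6), the latter known from squamous epithelium.

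Large changes in genes that no list held included Aldh1a3, which makes retinoic acid, at -2.96 (adjusted p = 0.000368), Dio2, which activates thyroid hormone, at -2.79 (adjusted p = 0.000185) and Chil1, a chitinase-like protein of inflamed tissue, at -2.30 (adjusted p = 0.000120). Dio1, the related deiodinase, changed the opposite way, by 1.34 (adjusted p = 0.00634). Edn1, a vasoconstrictor peptide, rose by 1.82 (adjusted p = 0.0381), and Trpm6, a magnesium channel of the colon, by 1.63 (adjusted p = 0.00395).

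In 54 called genes the 3 DKO arrays lay beyond all 9 other arrays, 25 above and 29 below (4.21%, against 1.12% of all genes). Of the 1284 called genes 1272 had no overlap between DKO and IL10KO arrays, so this share is not independent of the call. Nxpe4 averaged 8.75 in DKO and 5.996 over the other arrays, Gm609 6.40 against 4.62 and Otc 7.89 against 6.70. Gcg, the proglucagon gene of enteroendocrine cells, averaged 8.99 against 8.24. The clock genes Nr1d1 (7.14 against 8.60), Dbp (6.40 against 7.38) and Nr1d2 (6.18 against 7.003) were below, and Cry1 (7.66 against 6.99) was above.

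In a separate fit of all 41345 probe sets, those without a gene symbol were called in 1.17% of 16010, 80 higher and 107 lower in DKO. That fit called 2.56% of the probe sets with 1 symbol and 2.15% of those with several. Among symbols outside the naming rule, 2310079G19Rik lay at 4.04, 5.37 and 4.61 on the IL10KO arrays and at 8.33, 7.72 and 7.86 on the DKO arrays. The probe set named Mir192 averaged 5.23 in IL10KO and 7.06 in DKO (adjusted p = 0.00678), and such a probe set need not measure the mature microRNA.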
